A study of Mus musculus with 6 samples.

Results

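The genes described here are the matrix glycoproteins, proteoglycans, basement membrane proteins and their close relatives in mouse fat tissue. They were taken by gene name, as the protein-coding entries of the deposited gene table that carry the names of tenascins, periostin, fibronectin, thrombospondins, the SPARC and SMOC families, fibulins, fibrillins, elastin, emilins, microfibril-associated proteins, latent TGF-beta binding proteins, laminins, nidogens, leucine-rich proteoglycans, versican, hyaluronan synthases, link proteins, glypicans, syndecans or the CCN family. The rule used no measured value and found 68 of the 12163 listed genes, or of 9949 that code for protein. A further 15 genes whose names match the rule (Acan, Agrn, Efemp1, Emilin3, Fbln5, Fmod, Gpc2, Gpc3, Gpc5, Hapln1, Hapln2, Hspg2, Lama4, Lamc1 and Ltbp2) were outside the table and were not analysed here. Total RNA came from wild type C57BL/6 mice, a common inbred line, and both groups are labelled fat tissue: 3 libraries of grafts 7 days after fat grafting and 3 of fat before grafting. The submitters describe each set of 3 as biological replicates. Depot, graft site, age and sex are not in the labels.

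The extracellular matrix is the secreted scaffold around cells. Around each adipocyte it forms a basement membrane, a sheet in which laminin trimers and collagen IV networks are bridged by nidogens. Outside that sheet lie collagen fibres dressed with small leucine-rich proteoglycans, elastic fibres built on fibrillin microfibrils, and hyaluronan gels organised by versican and link proteins. Matricellular glycoproteins such as tenascins, thrombospondins and the CCN family carry little load and are best known from developing, wounded or scarring tissue. Syndecans and glypicans are cell-surface proteoglycans whose heparan sulfate chains hold growth factors and matrix proteins at the membrane.

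The reads of the listed genes came to between 14287560 and 15924559 in each graft library, and to between 13027776 and 14237288 in each library before grafting. Levels are the deposited normalized counts, in which each library's reads were divided by a size factor of its own, and a level per kb is that value divided by the deposited gene length in kb. The list itself was chosen for genes that differ between grafts and fat before grafting: 99.2% of the 10854 tested genes had an unadjusted p under 0.05 in the limma fit used here. A call, a Benjamini-Hochberg adjusted p under 0.05 from limma over all annotated genes, was reached by 80.4% of the tested genes, 41.3% being higher in grafts and 39.2% lower, and in 97.6% the groups did not overlap. The 12 adipocyte markers, which define the labelled tissue, were all listed and all fell. They summed to between 12176 and 37536 normalized counts in grafts, against 495460.2 to 669366 before grafting. In bulk tissue, fewer cells of a type and less RNA per cell cannot be told apart, and this holds for every level below.

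Among the 68 members, 41 rose in grafts, 18 fell and 9 were not called. The called share, 86.8%, and the 64 members whose groups did not overlap, 94.1%, both stood near the shares of all tested genes. By direction, 60.3% of the members were higher and 26.5% lower, beside the 41.3% and 39.2% of all tested genes. Their median log2 fold change, grafts over before grafting, was 1.33, against 0.28 over all tested genes. Changes of at least 1 on the log2 scale were found in 37 of the genes that rose and 15 of those that fell, and changes of at least 3 in 22 and 2. All 68 passed the filter on low values, but 6 passed it through a single group and so had to differ: Fbn2, Hapln4, Has1, Lama1 and Tnn through the grafts, and Hapln3 through the fat before grafting. With ribosomal protein genes set to no change, which moved the median of all tested genes to -0.44, 34 members were higher and 24 lower, and the share of called members that were higher was 58.6%, against 69.5% as deposited. The share among all called genes was 26.6% under that scaling, against 51.3%. Without before-grafting replicate 3, 11 members were called lower.

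**Figure D1:**
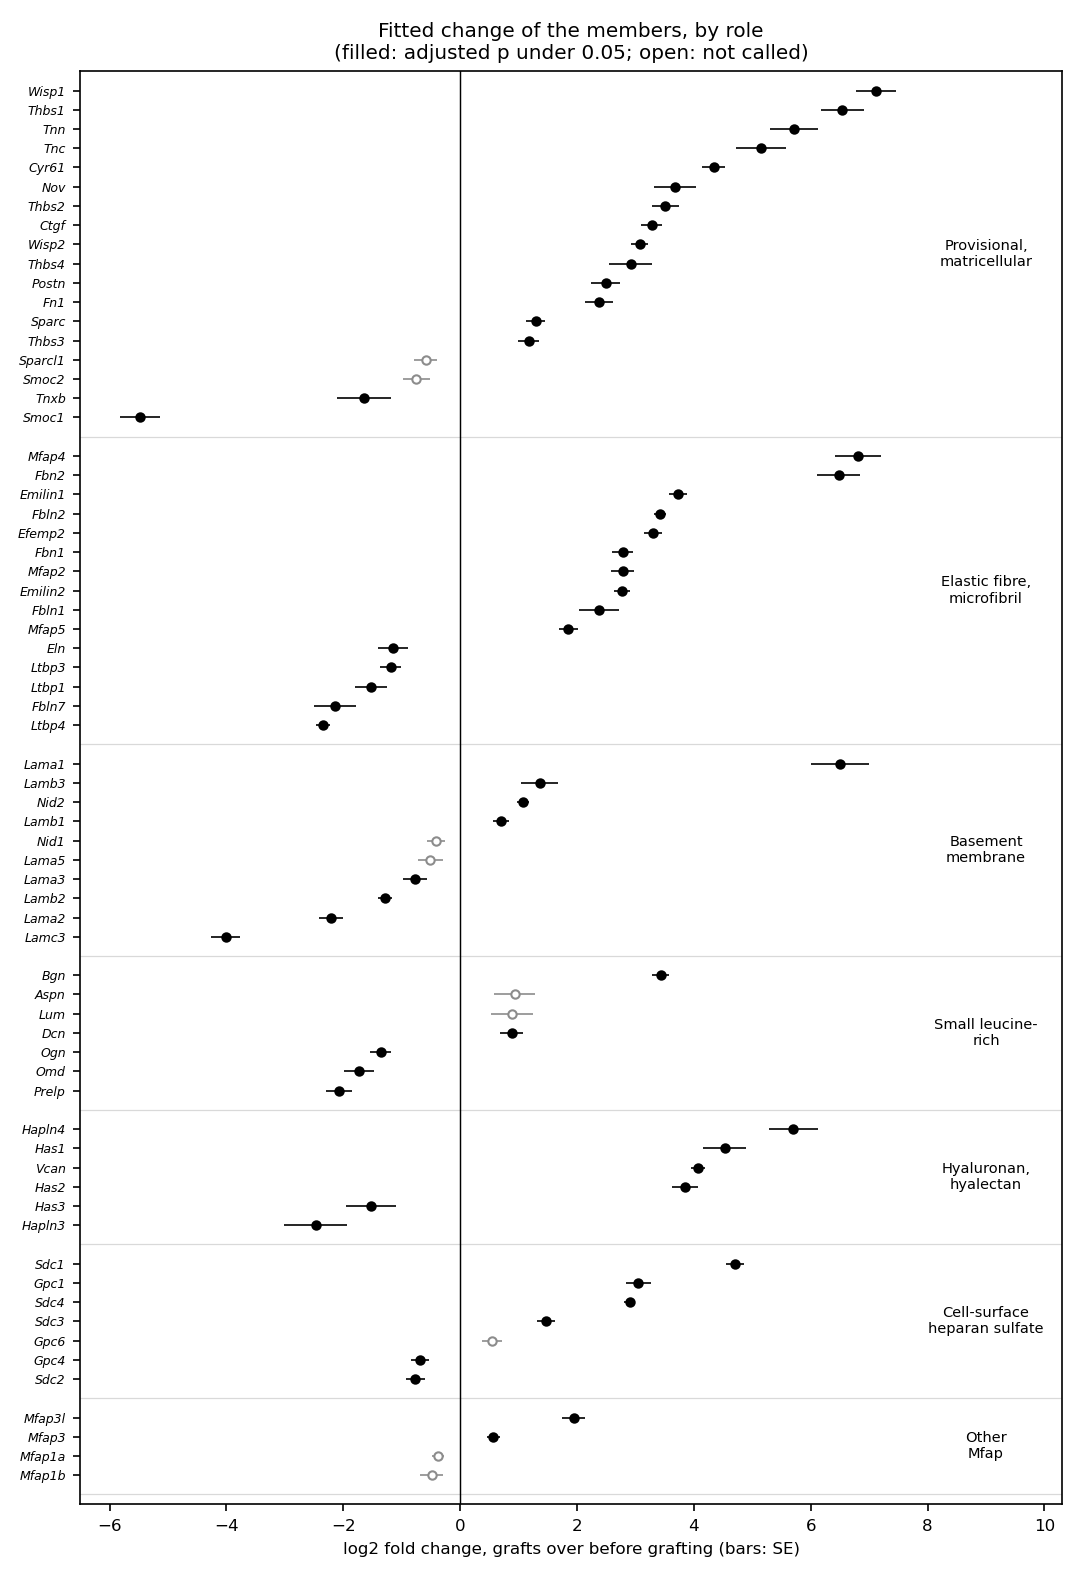
Fitted log2 fold change of the members described here, grafts 7 days after grafting over fat before grafting, with bars of 1 SE, arranged in role groups, with filled points for called and open points for uncalled members. Members called higher and lower occur in every role group but the small set of other Mfap genes, where none was called lower, and the basement membrane group has its median below 0 (-0.41) while the provisional and matricellular group has 14 of 18 members higher.

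The plot of fold changes sorts the members by role. Higher members formed most of the provisional and matricellular group (14 of 18, median log2 fold change 2.99) and of the elastic fibre and microfibril group (10 of 15, median 2.77). Of the hyaluronan synthases, versican and link proteins, 4 of 6 rose (median 3.96), and of the cell-surface heparan sulfate proteoglycans 4 of 7 (median 1.47). Has1, Hapln4 and Hapln3 of the hyaluronan group passed the filter through a single group and so had to differ. Their calls add no support to that count, and the same holds for Tnn, Fbn2 and Lama1 in the other groups. The basement membrane group divided into 5 that rose, 4 that fell and 2 that were not called (median -0.41). Its shares, 45.5% higher and 36.4% lower, were near those of all tested genes (41.3% and 39.2%). The small leucine-rich proteoglycans divided into 2, 3 and 2 (median 0.88). Those counts per group are small, and no group was tested against another.

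RefSeq promoter windows on GRCm38.p6 were available for 42 of the 68 members, and 7 are shown because close relatives moved in opposite directions (Tnc against Tnxb, Lamb1 against Lamb2) or because the gene had a large change and a readable set of matches (Cyr61, Sdc1, Ltbp4). Each window is the 250 bases before the RefSeq gene start, 5′ to 3′ on the gene's own strand. Capitals mark literal matches, on either strand and allowed to overlap, to the GC box GGGCGG, the TATA sequence TATAAA, the AP-1 sequence TGANTCA and the TEAD sequence GGAATG. The cyclic AMP element TGACGTCA, the E-box CACGTG and the CArG box were searched as well.
Tnc (chr4:64047016-64047265, minus strand): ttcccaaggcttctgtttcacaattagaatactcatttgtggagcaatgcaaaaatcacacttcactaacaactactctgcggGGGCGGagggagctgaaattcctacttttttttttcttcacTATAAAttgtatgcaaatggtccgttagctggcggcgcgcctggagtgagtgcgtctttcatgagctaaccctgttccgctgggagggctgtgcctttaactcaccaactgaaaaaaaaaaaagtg
Tnxb (chr17:34670285-34670534, plus strand): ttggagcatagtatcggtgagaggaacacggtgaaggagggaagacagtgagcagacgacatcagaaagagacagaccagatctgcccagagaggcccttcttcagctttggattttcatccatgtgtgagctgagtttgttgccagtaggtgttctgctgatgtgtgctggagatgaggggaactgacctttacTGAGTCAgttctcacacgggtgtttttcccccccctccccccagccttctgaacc
Cyr61 (chr3:145649986-145650235, minus strand): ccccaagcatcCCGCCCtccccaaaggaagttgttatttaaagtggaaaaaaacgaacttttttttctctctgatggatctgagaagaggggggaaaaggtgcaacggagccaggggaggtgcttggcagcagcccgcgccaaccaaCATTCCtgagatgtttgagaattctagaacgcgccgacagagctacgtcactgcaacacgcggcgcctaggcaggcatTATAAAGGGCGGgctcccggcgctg
Lamb1 (chr12:31265043-31265292, plus strand): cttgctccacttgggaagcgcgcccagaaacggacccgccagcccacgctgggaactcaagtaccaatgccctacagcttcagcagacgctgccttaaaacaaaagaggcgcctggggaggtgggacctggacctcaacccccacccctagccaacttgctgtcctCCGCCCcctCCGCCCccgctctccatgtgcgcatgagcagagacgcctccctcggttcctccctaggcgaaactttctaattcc
Lamb2 (chr9:108479612-108479861, plus strand): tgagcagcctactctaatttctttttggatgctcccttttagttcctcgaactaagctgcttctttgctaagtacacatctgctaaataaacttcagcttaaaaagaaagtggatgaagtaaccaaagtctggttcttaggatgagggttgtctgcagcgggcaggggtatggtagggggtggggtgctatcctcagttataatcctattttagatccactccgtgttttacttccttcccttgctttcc
Sdc1 (chr12:8771146-8771395, plus strand): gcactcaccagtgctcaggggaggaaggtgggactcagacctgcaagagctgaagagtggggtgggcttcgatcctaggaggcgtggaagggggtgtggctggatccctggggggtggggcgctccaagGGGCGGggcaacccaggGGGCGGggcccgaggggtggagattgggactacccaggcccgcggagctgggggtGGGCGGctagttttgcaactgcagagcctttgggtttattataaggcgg
Ltbp4 (chr7:27337613-27337862, minus strand): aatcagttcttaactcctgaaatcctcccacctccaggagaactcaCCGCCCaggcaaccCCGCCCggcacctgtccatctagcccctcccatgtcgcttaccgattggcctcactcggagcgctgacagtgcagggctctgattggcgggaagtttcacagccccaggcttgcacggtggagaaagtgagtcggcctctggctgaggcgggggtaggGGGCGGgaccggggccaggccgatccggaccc
The Lamb1 window holds a pair of adjacent GC boxes, beginning 84 and 75 bases before the start, and in the Lamb2 window none of the searched letters occur. The Tnc window has a GC box 167 and a TATA sequence 126 bases before the start, and the Tnxb window an AP-1 sequence 55 bases before it. In the Cyr61 window a TATA sequence lies 25 bases and a GC box 19 bases before the start, and the TEAD letters stand 103 bases before it. The Sdc1 window carries 3 GC boxes, as does that of Ltbp4, a gene that fell. A GC box was present in 15 of the 25 members with a window that rose (60.0%), in 2 of 12 that fell (16.7%) and in 4 of 5 that were not called, against 32.7% of all 32851 windows. The sets are unlike: each member has its nearest window, while all windows can include several per gene, whether listed or not. The RefSeq starts of Lamb3, Sparc and Lama2 lay 94295, 3103 and 2816 bases from the deposited gene starts. Windows of the members that rose had a median GC content of 58.8%, against 54.0% in those that fell and 52.4% in all windows. Over all windows AP-1 letters occurred in 6.75%, TEAD in 12.6%, TATA in 12.4%, the cyclic AMP element in 1.55%, CArG in 1.47% and the E-box in 6.02%. Among the 42 members these occurred in 1, 8, 7, 2, 1 and 1 windows. A match is a description of the letters and not a binding site.

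The 14 provisional matrix and matricellular genes that rose were higher in grafts by folds from 2.30 to 145.6, while Smoc1 and Tnxb fell. Fibronectin (Fn1, chr1:71585520-71653200 as deposited, on GRCm38 like all gene positions given here), the adhesive glycoprotein that cells assemble into the first matrix of a wound, had normalized counts of 56897, 86537 and 43812 in grafts, against 12822, 12123 and 9934 before grafting. All 3 graft libraries lay above all 3 libraries before grafting (5.37-fold by the means, log2 fold change 2.38, SE 0.24, adjusted p = 0.000204). Tenascin-C (Tnc), a hexameric glycoprotein that loosens cell adhesion, had 8993, 30968 and 26011 in grafts, against 667, 444 and 545 before grafting. Graft replicate 1 was the lowest of the grafts and still stood far above every library before grafting (39.9-fold, log2 fold change 5.15, SE 0.43, adjusted p = 0.000107). Periostin (Postn), which links fibronectin, tenascin and collagen, had 21119, 38473 and 42863 in grafts, against 5271, 6668 and 5613 before grafting, without overlap (5.84-fold, log2 fold change 2.49, SE 0.25, adjusted p = 0.000224).

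Thrombospondin 1 (Thbs1), a platelet and wound glycoprotein that inhibits angiogenesis and can activate latent TGF-beta, had normalized counts of 25374, 66384 and 23258 in grafts, against 415, 326 and 355 before grafting. The groups were separate, but graft replicate 2 carried more than the other 2 grafts together (105-fold, log2 fold change 6.54, SE 0.37, adjusted p = 1.56e-05). Without that library the graft mean was 24316 instead of 38339, and the fold 66.5. The other thrombospondins also rose, by smaller folds: Thbs2 was 11.9-fold, Thbs4 8.45-fold and Thbs3 2.30-fold higher. Thbs3 lost its call with ribosomal protein genes at no change (log2 fold change 0.45). Tenascin-N (Tnn), known from bone and its surrounding sheath, averaged 686 ± 312 in grafts, against 11.6 ± 4.3 before grafting (SD, n = 3 each).

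All 5 listed CCN genes rose, beside 41.3% of all tested genes. They encode secreted modular proteins that bind integrins and growth factors. Wisp1, which had the largest log2 fold change of all members, had normalized counts of 1835, 3381 and 3584 in grafts, against 25.6, 12.2 and 22.6 before grafting. It was low before grafting and far higher in all 3 grafts (146-fold, log2 fold change 7.12, SE 0.34, adjusted p = 5.43e-06). Ctgf, a standard target of TGF-beta and of the YAP and TEAD factors, had 2548, 2596 and 1835 in grafts, against 191, 261 and 261 before grafting. Its groups were far apart (9.78-fold, log2 fold change 3.28, SE 0.18, adjusted p = 9.76e-06), although 23.2% of its exon bases are shared with the opposite-strand gene Gm15270, and use of the strand is not given in the sources used here. Cyr61, another target of those factors, was 19.8-fold higher, Nov 14.3-fold and Wisp2 8.51-fold.

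The SPARC family moved in both directions. Sparc, a collagen-binding protein needed for collagen processing, was the most abundant member per kb in both groups and had normalized counts of 116273, 153204 and 156958 in grafts, against 52921, 65037 and 55761 before grafting. Its change was among the smaller ones of its group (2.46-fold, log2 fold change 1.29, SE 0.16, adjusted p = 0.000573). Smoc1, a secreted calcium-binding relative of SPARC that occurs in basement membranes, had 168, 119 and 56.4 in grafts, against 4159, 5288 and 4747 before grafting. It fell most of all members (41.3-fold lower, log2 fold change -5.48, SE 0.35, adjusted p = 2.85e-05), and graft replicate 1 retained the most. The relatives Sparcl1, with 3464 ± 975 in grafts, against 5112 ± 585 before grafting, and Smoc2, with 657 ± 229 in grafts, against 1062 ± 104 before grafting, were not called (SD, n = 3 each; adjusted p = 0.102 and 0.0766, limma). Smoc2 was called lower under all 4 other scalings and without graft replicate 2, and Sparcl1 under 3 of them and without graft replicate 1.

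Tenascin-X (Tnxb), which spaces collagen fibrils in loose connective tissue, had normalized counts of 2262, 4059.5 and 967 in grafts, against 7277, 7195 and 5274 before grafting. The groups did not overlap, and graft replicate 2 was again the highest graft (2.71-fold lower, log2 fold change -1.65, SE 0.46, adjusted p = 0.0474). The graft mean without graft replicate 2 was 1615 instead of 2429.6. The call was lost without any 1 of the libraries before grafting or without graft replicate 1 (adjusted p between 0.0899 and 0.208, limma), and in the limma fit without trend and robust settings (adjusted p = 0.109). Smoc1 was then the 1 gene of its group called lower without any 1 library before grafting. Tnc and Tnxb, whose windows are shown above, stood in a per-kb ratio of 6.25, 11.98 and 42.2 in grafts and 0.144, 0.0969 and 0.162 before grafting.

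**Figure D2:**
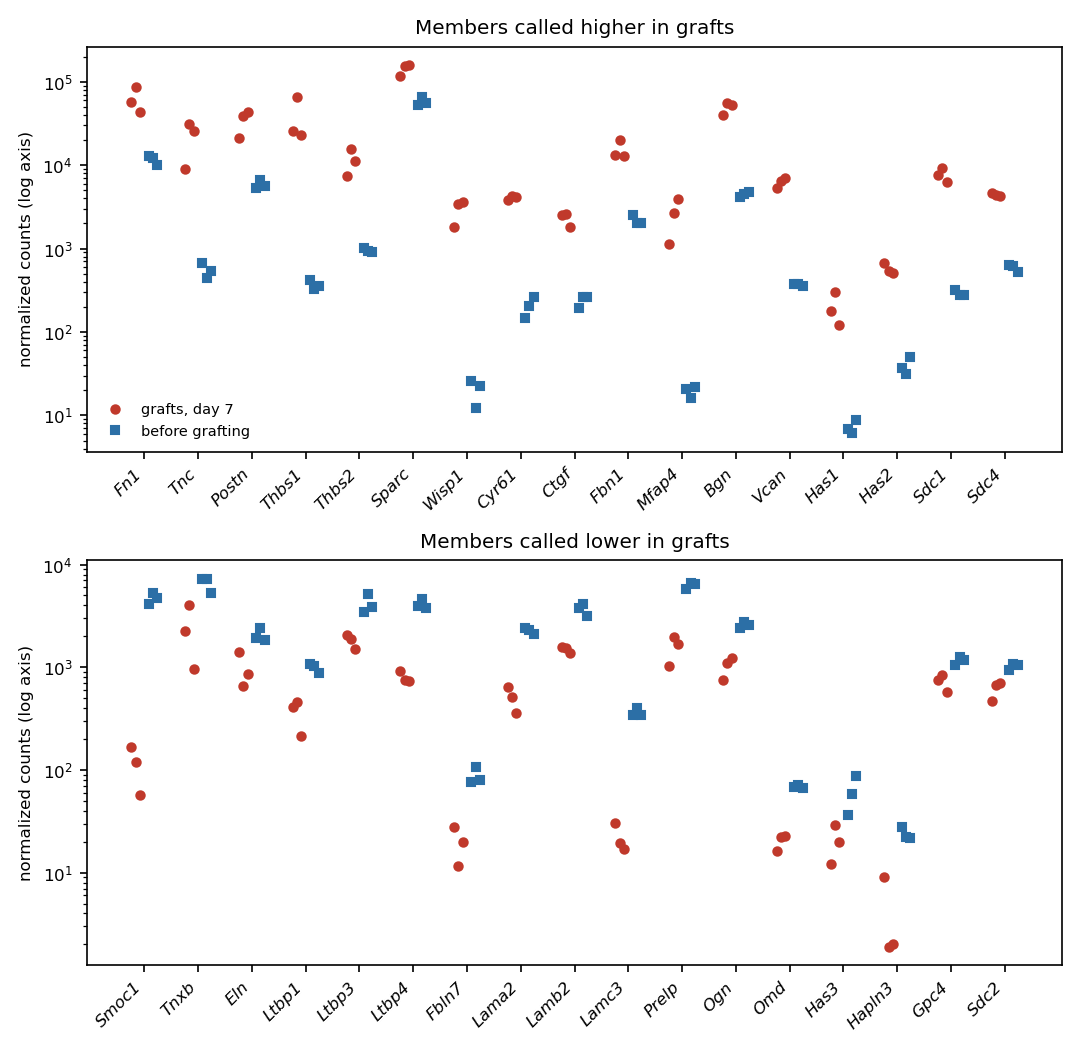
Normalized counts per library of 17 members called higher (upper panel) and 17 called lower (lower panel), on log axes; red circles are grafts 7 days after grafting, blue squares to their right are fat before grafting, and each point is 1 library. No pair of groups overlaps; Tnc, Thbs1 and Sdc1 stand 39.9-fold, 104.9-fold and 26.3-fold apart by their means, and Gpc4, Has3, Tnxb and Eln come closest to meeting among the lower members.

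Elastic fibre and microfibril genes were all called, with 10 higher and 5 lower, where 80.4% of all tested genes were called. The fibrillins, whose polymers form the microfibril core, both rose. Fbn1 had normalized counts of 13134, 19867 and 12810.1 in grafts, against 2494, 2048 and 2030.2 before grafting, without overlap (6.97-fold, log2 fold change 2.78, SE 0.18, adjusted p = 2.21e-05), and 20.1% of its exon bases are shared with the opposite-strand gene Gm9913. Fbn2, the fibrillin typical of development, had 1032, 1272 and 1372 in grafts, against 8.9, 9.1 and 24.6 before grafting. Before grafting, replicate 3 held most of the reads (86.3-fold, log2 fold change 6.48, SE 0.37, adjusted p = 1.2e-05), and without it the fold was 136. Mfap4, a microfibril-associated fibrinogen-domain protein, had 1145, 2643 and 3923 in grafts, against 20.7, 16.2 and 21.6 before grafting, with graft replicate 1 the lowest graft but well above the fat before grafting (132-fold, log2 fold change 6.81, SE 0.40, adjusted p = 1.45e-05).

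Elastin itself went the other way from these scaffold genes. Eln, the core protein of the elastic fibre, had normalized counts of 1401, 652 and 865 in grafts, against 1918, 2436 and 1842 before grafting. Graft replicate 1 came close to the libraries before grafting, and the call (2.12-fold lower, log2 fold change -1.15, SE 0.26, adjusted p = 0.017) was lost without any 1 library before grafting or without graft replicate 3 (adjusted p between 0.0505 and 0.0961, limma) and in the plain limma fit (0.0559). Efemp2 (fibulin-4), which brings lysyl oxidase to elastin, was 9.99-fold higher, and Fbln2 was 10.7-fold and Fbln1 5.66-fold higher. Emilin1 and Emilin2, glycoproteins at the elastin and microfibril interface, were 13.2-fold and 6.73-fold higher. The microfibril-associated glycoproteins Mfap2 and Mfap5 were 6.93-fold and 3.65-fold higher. Except for Eln and Fbln7, the genes of this group that fell were those of the latent TGF-beta binding proteins.

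The latent TGF-beta binding proteins tether the inactive growth factor to microfibrils, and all 3 that were listed fell, beside 39.2% of all tested genes. Ltbp4, the form that also supports elastic fibre assembly and whose window is shown above, had normalized counts of 914, 758 and 739.9 in grafts, against 3955, 4608 and 3753 before grafting, with the groups wide apart (5.11-fold lower, log2 fold change -2.35, SE 0.12, adjusted p = 7.48e-06). Ltbp1 was 2.75-fold and Ltbp3 2.29-fold lower. Fbln7, a fibulin with cell-adhesive activity, had 28.1, 11.6 and 19.8 in grafts, against 75.9, 106 and 79.7 before grafting (4.40-fold lower, log2 fold change -2.15, SE 0.36, adjusted p = 0.00325). Under each of the 4 other scalings the group kept 10 members higher and 5 lower.

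Basement membrane genes went in both directions. Laminins are trimers of 1 alpha, 1 beta and 1 gamma chain. The beta chains moved in opposite directions. Lamb1, the beta chain of the embryonic and vascular laminins, had normalized counts of 8009, 8314 and 7117 in grafts, against 5186, 5362 and 3984 before grafting, without overlap (1.61-fold, log2 fold change 0.70, SE 0.13, adjusted p = 0.0074), but its log2 fold change was -0.02 with ribosomal protein genes at no change. Lamb2, the beta chain of synaptic, glomerular and mature vascular laminins, had 1568, 1554 and 1367 in grafts, against 3754, 4134 and 3148 before grafting, also without overlap (2.46-fold lower, log2 fold change -1.29, SE 0.12, adjusted p = 0.000145). The per-kb ratio of Lamb1 to Lamb2 was 3.13, 3.28 and 3.19 in grafts and 0.847, 0.795 and 0.776 before grafting, so the order of the beta chains differed between the groups, and no scaling of whole libraries can alter that ratio.

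Of the alpha chains, Lama2, the chain of muscle and peripheral nerve laminins, had normalized counts of 642, 517 and 358 in grafts, against 2412, 2327 and 2085 before grafting. Every graft was far below the fat before grafting (4.50-fold lower, log2 fold change -2.21, SE 0.20, adjusted p = 0.000117). Lama5, the broadly expressed adult chain, had 1318, 725 and 870.5 in grafts, against 1261, 1510.4 and 1253 before grafting. Graft replicate 1 lay within the range before grafting, and the gene was not called (log2 fold change -0.51, SE 0.21, adjusted p = 0.213); without that replicate it was called lower (log2 fold change -0.75, adjusted p = 0.00641, limma). Lama3, a chain of the epithelial laminins, was 1.69-fold lower, a call lost in 5 of the 6 fits that left out a library, all but that without graft replicate 3, and under the replicate block (adjusted p = 0.106, limma). Lama1, the chain of the earliest embryonic basement membranes, had 154, 144 and 64.3 in grafts, against 0, 0 and 1.0 before grafting. This was 366 reads in the grafts and 1 read before grafting, a ratio of 363.6 with a 95% exact binomial interval of 64.9 to 14400.0 that covers counting error only (adjusted p = 4.7e-05, limma).

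Lamb3, a beta chain of the epithelial laminins, had normalized counts of 209.9, 429.6 and 423 in grafts, against 157, 149 and 94.4 before grafting, with graft replicate 1 the lowest graft (2.66-fold, log2 fold change 1.36, SE 0.32, adjusted p = 0.0205). The Lamb3 adjusted p passed the threshold no longer under the replicate block (0.0574, limma) or without before-grafting replicate 2 or 3 or graft replicate 2 or 3 (adjusted p between 0.0569 and 0.0862), and was 0.0529 in the plain limma fit. Lamc3, a gamma chain known from brain and nerve, had 30.1, 19.4 and 16.8 in grafts, against 346, 399 and 342 before grafting, and was low in all 3 grafts (16.4-fold lower, log2 fold change -4.01, SE 0.25, adjusted p = 1.78e-05).

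The nidogens bridge laminin and collagen IV networks. Nid1 had normalized counts of 10572, 11722 and 7843 in grafts, against 13243, 13540.2 and 12791 before grafting; the highest graft remained below the lowest library before grafting. It was not called as deposited (log2 fold change -0.41, SE 0.15, adjusted p = 0.136), and was called lower under each of the 4 other scalings (log2 fold changes from -0.53 to -1.13). Nid2 had 3163, 3332 and 3818 in grafts, against 1549, 1670.5 and 1656 before grafting, without overlap (2.12-fold, log2 fold change 1.08, SE 0.10, adjusted p = 0.000137). Relative to Nid1 per kb, Nid2 stood at 0.401, 0.382 and 0.653 in grafts and 0.157, 0.166 and 0.174 before grafting. With ribosomal protein genes at no change, Lama1 was the 1 basement membrane gene still called higher and 6 were called lower.

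**Figure D3:**
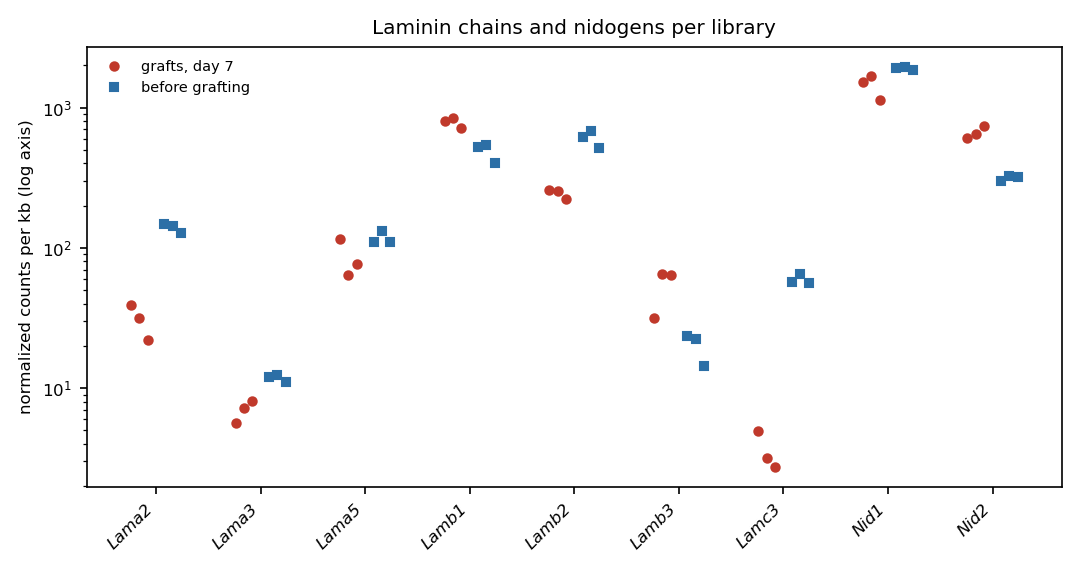
Normalized counts per kb of the laminin chain and nidogen genes described here, on a log axis, 1 point per library, with grafts (red circles) left of fat before grafting (blue squares); Lama1 is left out because it has 0 in some libraries. Lamb1 lies higher and Lamb2, Lama2 and Lamc3 lower in grafts, and the Lama5 groups overlap.

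Among the small leucine-rich proteoglycans, which coat collagen fibrils and set their diameter, Bgn rose most. Biglycan (Bgn, chrX:73483602-73495933), which also acts as a danger signal when released, had normalized counts of 39689.7, 54998 and 51924 in grafts, against 4182, 4551 and 4709.6 before grafting, and every graft was far above the fat before grafting (10.9-fold, log2 fold change 3.43, SE 0.14, adjusted p = 2.79e-06). Its class relative decorin (Dcn, chr10:97479609-97518143) had 19037, 29444 and 31709.6 in grafts, against 14679, 14294 and 13709.9 before grafting. The groups were separate but closer (1.88-fold, log2 fold change 0.88, SE 0.19, adjusted p = 0.0125), and the call was lost without before-grafting replicate 3 (adjusted p = 0.0596) or graft replicate 2 (adjusted p = 0.0514, limma), leaving Bgn alone, as it was with equal upper quartiles or ribosomal protein genes at no change. Per kb, Dcn was the more abundant before grafting and Bgn the more abundant in grafts: the ratio of Bgn to Dcn was 1.996, 1.788 and 1.567 in grafts and 0.273, 0.305 and 0.329 before grafting.

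Lumican (Lum, chr10:97565128-97572703), next to Dcn on the chromosome, had normalized counts of 2064, 4336 and 6338 in grafts, against 1863, 2201 and 2176 before grafting. Graft replicate 1 lay within the range before grafting and the other grafts lay above it, so the groups overlapped and the gene was not called (log2 fold change 0.89, SE 0.36, adjusted p = 0.205). Asporin (Aspn, chr13:49544443-49567565), a relative of biglycan and decorin, had 1118, 2562 and 3178 in grafts, against 990.0, 1139 and 1159.7 before grafting, with the same overlap (log2 fold change 0.93, SE 0.35, adjusted p = 0.154). Without graft replicate 1 both were called higher (adjusted p = 0.00107 for Lum and 0.00023 for Aspn, limma), which made 4 higher in the group. Aspn, Omd (chr13:49582462-49592822) and Ogn (chr13:49608046-49624501) lie in a row on chromosome 13, and the other 2 fell. Ogn (osteoglycin) had 755, 1096 and 1234 in grafts, against 2398, 2781 and 2599.7 before grafting (2.52-fold lower, log2 fold change -1.36, SE 0.18, adjusted p = 0.000894), with no overlap. Omd (osteomodulin, best known from bone) had 16.1, 22.3 and 22.8 in grafts, against 68, 71.9 and 66.9 before grafting, a low level in both groups (3.38-fold lower, log2 fold change -1.73, SE 0.26, adjusted p = 0.00208). Prelp (chr1:133910304-133921414), which anchors basement membranes to collagen, had 1029, 1972 and 1677 in grafts, against 5835, 6655 and 6519.5 before grafting, with all grafts far below (4.06-fold lower, log2 fold change -2.07, SE 0.22, adjusted p = 0.000285). The 3 that fell were called in every alternative that was run.

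Genes for the hyaluronan matrix were low before grafting. Versican (Vcan), the large proteoglycan that binds hyaluronan in loose and expanding tissue, had normalized counts of 5305, 6464 and 7096 in grafts, against 379, 379.9 and 356 before grafting, without overlap (16.9-fold, log2 fold change 4.07, SE 0.12, adjusted p = 8.79e-07). The synthases Has1 and Has2 extrude hyaluronan through the plasma membrane. Has2 had 674, 537 and 510.4 in grafts, against 36.5, 31.4 and 50.2 before grafting, with the 3 grafts close together (14.6-fold, log2 fold change 3.85, SE 0.22, adjusted p = 1.17e-05). Has1 had 181, 303 and 122.7 in grafts, against 6.9, 6.1 and 8.9 before grafting, higher in graft replicate 2 than in the others (27.8-fold, log2 fold change 4.53, SE 0.37, adjusted p = 6.59e-05).

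The remaining synthase fell, from a low level: Has3 had normalized counts of 12.1, 29.1 and 19.8 in grafts, against 36.5, 58.8 and 87.5 before grafting, near but not overlapping (3.00-fold lower, log2 fold change -1.53, SE 0.43, adjusted p = 0.0471). That call was lost without before-grafting replicate 2 or 3 or graft replicate 1 or 3 (adjusted p between 0.106 and 0.207, limma) and with a pseudocount of 0.5 (adjusted p = 0.0509) or the plain limma fit (0.0683). The link proteins stabilise the bond between hyaluronan and versican. Hapln4, known from brain perineuronal matrix, had 258, 292 and 348 in grafts, against 5.9, 8.1 and 2.0 before grafting (56.2-fold, log2 fold change 5.70, SE 0.42, adjusted p = 4.07e-05). Hapln3 had 9.0, 1.9 and 2.0 in grafts, against 27.6, 22.3 and 21.6 before grafting, with few reads in any graft (5.52-fold lower, log2 fold change -2.47, SE 0.54, adjusted p = 0.0147), with a graft mean of 2.0 instead of 4.3 without graft replicate 1. Its call was lost without any 1 library before grafting (adjusted p between 0.0518 and 0.0704, limma), so that neither gene of this group was called lower without before-grafting replicate 2 or 3, and 1 was without before-grafting replicate 1, graft replicate 1 or graft replicate 3.

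The cell-surface heparan sulfate proteoglycans were led by Sdc1, the syndecan of epithelia and plasma cells that also appears on wound fibroblasts and macrophages. Sdc1 had normalized counts of 7554, 9119 and 6285 in grafts, against 322, 274 and 276 before grafting, without overlap (26.3-fold, log2 fold change 4.70, SE 0.15, adjusted p = 1.08e-06). Sdc4, the syndecan of focal adhesions and a fibronectin co-receptor, had 4572, 4436 and 4232 in grafts, against 630.1, 613 and 527 before grafting, the 3 grafts being close together (7.48-fold, log2 fold change 2.90, SE 0.10, adjusted p = 1.5e-06). Sdc3 was 2.78-fold higher. Sdc2, the syndecan of mesenchymal cells, had 466, 669 and 703 in grafts, against 949.6, 1087 and 1062 before grafting, and fell (1.69-fold lower, log2 fold change -0.77, SE 0.16, adjusted p = 0.012). The per-kb ratio of Sdc1 to Sdc2 was 15.0, 12.6 and 8.28 in grafts and 0.314, 0.234 and 0.241 before grafting.

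The glypicans, held to the membrane by a lipid anchor, also divided. Gpc1 had normalized counts of 1421, 2572 and 2309.8 in grafts, against 271, 237 and 230.2 before grafting, all grafts above (8.54-fold, log2 fold change 3.05, SE 0.21, adjusted p = 3.18e-05), and 18.9% of its exon bases are shared with the opposite-strand gene Ankmy1, which is listed too. Gpc4, which in mouse fat cells can be shed and enhance insulin signalling, had 757, 841 and 574 in grafts, against 1049, 1260.2 and 1174 before grafting (1.60-fold lower, log2 fold change -0.69, SE 0.15, adjusted p = 0.0149). Gpc6 averaged 276 ± 21.4 in grafts, against 192 ± 36.7 before grafting (SD, n = 3 each), was not called (log2 fold change 0.54, SE 0.17, adjusted p = 0.0867) and had a log2 fold change of -0.18 with ribosomal protein genes at no change. The Gpc4 call was lost without before-grafting replicate 2 (adjusted p = 0.0583, limma) and both the Gpc4 and Sdc2 calls without before-grafting replicate 3 (0.0666 and 0.0593), which left 1 and 0 members of this group lower.

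The name rule also took 4 microfibril-associated protein genes that were set apart from the matrix roles. Mfap1a and Mfap1b, near-identical copies that encode a splicing factor and whose reads cannot be assigned with certainty, were not called on the deposited scale. Mfap1a averaged 364 ± 29.0 in grafts, against 473 ± 17.0 before grafting, and Mfap1b 248 ± 51.4 in grafts, against 349 ± 59.6 before grafting (SD, n = 3 each). Mfap1a was called lower under all 4 other scalings (adjusted p between 0.000181 and 0.0268, limma), and Mfap1b with ribosomal protein genes held at no change (adjusted p = 0.00244). Mfap3l had 418, 464 and 318 in grafts, against 106, 87.1 and 116 before grafting, without overlap (3.89-fold, log2 fold change 1.94, SE 0.20, adjusted p = 0.000207). Mfap3 had 1136, 1308 and 1314 in grafts, against 868, 762 and 904 before grafting, also without overlap (1.48-fold, log2 fold change 0.57, SE 0.11, adjusted p = 0.00744), but the call was lost with equal listed totals (log2 fold change 0.44, adjusted p = 0.0532) and equal upper quartiles (0.33, adjusted p = 0.127), and the log2 fold change was -0.15 once ribosomal protein genes are held at no change. Without these 4 genes, 39 of 64 members rose and 18 fell.

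The members' share of the listed total was 3.04%, 4.19% and 3.68% in grafts, against 1.37%, 1.36% and 1.29% before grafting. Within the members' summed per-kb level, Sparc was first in both groups with 36.5% in grafts and 40.7% before grafting. In grafts Bgn was next with 7.78%, then Thbs1 with 5.91% and Fn1 with 5.18%. Before grafting the corresponding shares were 1.96% for Bgn, 0.162% for Thbs1 and 2.66% for Fn1. Thbs1 ranked 3 of the 68 members in grafts and 46 before grafting. Nid1 had 1.43% in grafts and 5.08% before grafting, with ranks of 14 and 3. Prelp had 0.411% in grafts and 4.68% before grafting, with ranks of 32 and 4. Smoc1 had 0.0337% in grafts and 3.60% before grafting, with ranks of 59 and 6. By role, the 11 listed basement membrane genes made up 3.33% in grafts and 9.79% before grafting, and small leucine-rich proteoglycans 15.6% and 19.4%. Lama4, Lamc1, Hspg2 and Agrn were outside the table and are not in that basement membrane share. Elastic fibre and microfibril genes made up 12.2% in grafts and 8.44% before grafting, and provisional and matricellular genes 62.0% and 57.0%. Shares within a library do not depend on how libraries are scaled.

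**Figure D4:**
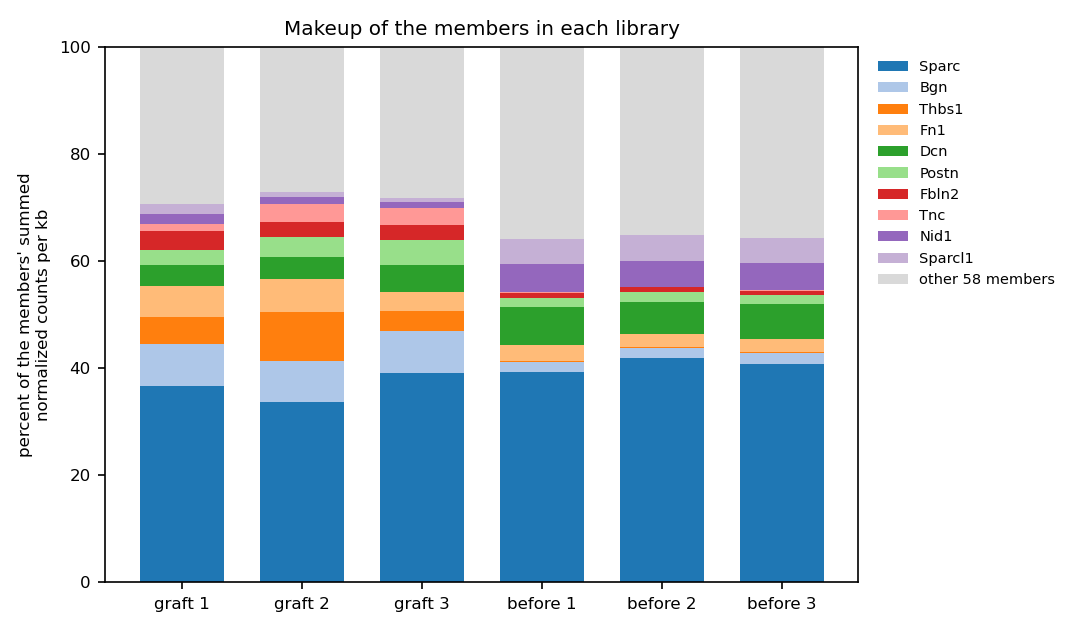
Stacked shares of 10 abundant members and of the other 58, in percent of the members' summed normalized counts per kb, in each of the 3 grafts (left) and the 3 libraries of fat before grafting (right). Sparc has the largest share in all 6 libraries, Bgn, Thbs1 and Tnc take wider bands in grafts, and Nid1, Sparcl1 and Dcn wider bands before grafting.

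Per-kb ratios between relatives were computed for 14 pairs picked after their values had been seen, so they are given as descriptions with no test. In 13 of them the 3 grafts lay outside the range before grafting. The ratio of Fbn2 to Fbn1 was 0.0910, 0.0741 and 0.124 in grafts and 0.00412, 0.00515 and 0.0140 before grafting, so Fbn1 was the major fibrillin throughout. Has2 exceeded Has3 by 84.2, 27.8 and 38.9 times in grafts, whereas their ratio was 1.51, 0.805 and 0.863 before grafting. The ratio of Gpc1 to Gpc4 was 0.964, 1.57 and 2.07 in grafts and 0.133, 0.0967 and 0.101 before grafting. Thbs1 exceeded Thbs2 in all grafts (3.95, 4.93 and 2.41) and was below it before grafting (0.476, 0.399 and 0.453). The ratio of Postn to Fn1 overlapped, with 0.498, 0.597 and 1.31 in grafts and 0.552, 0.739 and 0.759 before grafting.

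**Figure D5:**
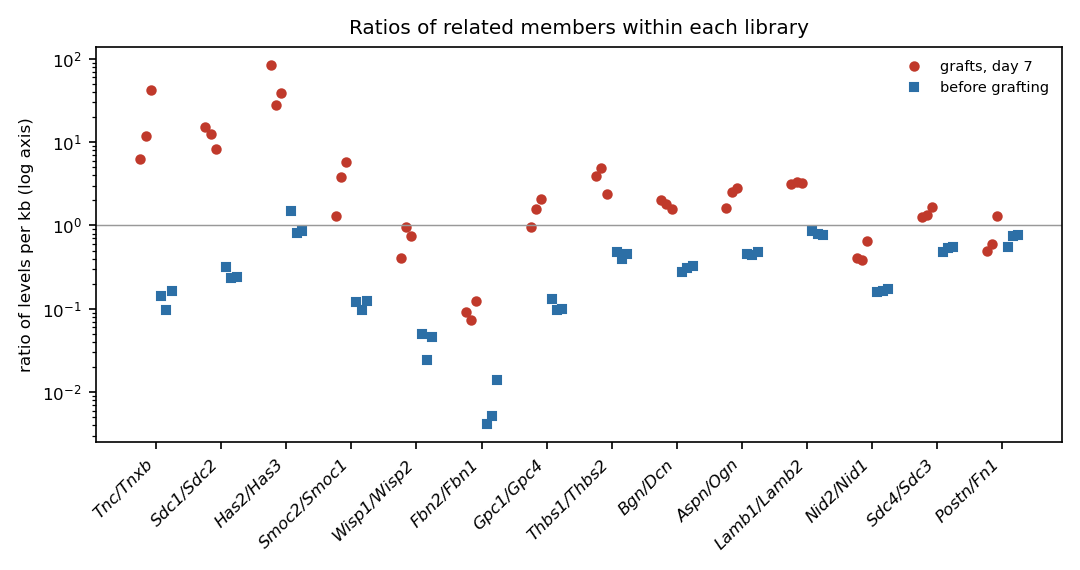
Ratios of levels per kb between related members, both taken from the same library, on a log axis with a line at a ratio of 1; red circles are grafts and blue squares to their right fat before grafting, 1 point per library. The Lamb1 to Lamb2 ratio lies between 3.13 and 3.28 in grafts and between 0.776 and 0.847 before grafting, and the Postn to Fn1 ratio is the 1 whose groups overlap.

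The grafts varied more among themselves than the fat before grafting did. The median coefficient of variation over the members was 23.0% in grafts and 11.7% before grafting. Graft replicate 1 was the lowest of the 3 grafts for 35 members and the highest for 17, graft replicate 2 the lowest for 5 and the highest for 29, and graft replicate 3 the lowest for 28 and the highest for 22. Graft replicate 1 also had the highest summed adipocyte markers (37536 normalized counts, against 16082 and 12176 in graft replicates 2 and 3) and the lowest sum of the fibroblast marker collagens Col1a1, Col1a2 and Col3a1 (785438, against 1294401 and 1159612). The other 8 fibroblast and progenitor markers summed to 19924 in graft replicate 1, against 26117 and 22915 in graft replicates 2 and 3. The genes with the widest graft ranges at higher levels included Tnxb (4.196 times from lowest to highest), Tnc (3.44 times), Mfap4 (3.43 times), Lum (3.07 times) and Thbs1 (2.85 times).

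Marker genes of the cells that could make or hold this matrix moved as well. Fibroblast and progenitor markers (11 of 12 listed, 7 higher and 2 lower) summed to between 805361 and 1320518 in grafts, against 121341 to 161029 before grafting. Col1a1, Col1a2 and Col3a1, themselves matrix genes, made up 97.5% to 98.1% of that sum in grafts and 88.9% to 90.3% before grafting. The other 8 of these markers, of which 4 were called higher and Dpp4 and Clec3b lower, summed to between 19924 and 26117 in grafts, against 13123 to 16173 before grafting (1.54-fold by the means). Macrophage markers (10 of 12 listed, 9 higher) summed to between 68306 and 83998 in grafts, against 11610 to 14860 before grafting. Blood endothelial markers (7 of 12 listed, 4 lower) summed to between 6018 and 8348 in grafts, against 12578 to 15440 before grafting. Mural markers (7 of 12 listed, 6 lower and Acta2 higher) summed to between 9226 and 9518 in grafts, against 14862 to 16503 before grafting, and all 7 listed Schwann cell markers of 8 fell (1936 to 3094 in grafts, against 4690 to 5278 before grafting). Mesothelial markers (5 of 8 listed) summed to between 89.2 and 173.7 in grafts, against 44.4 to 88.1 before grafting, where Upk3b, Wt1 and Bnc1 were at 0. The pair of these that could be tested went opposite ways: Wt1 was called higher, and Lrrn4, with 12.1, 1.9 and 1.0 in grafts, against 41.4, 83.1 and 77.7 before grafting, was called lower (13.5-fold). Wt1 passed the filter on low values through the grafts alone and Lrrn4 through the fat before grafting alone, so both had to differ. S100b of the Schwann cell markers and Lep of the adipocyte markers also passed it through the fat before grafting alone. None of 8 skeletal muscle markers was listed. The part of these cell types in the members' changes was not tested.

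Among the receptors and enzymes that act on these matrix proteins, 9 of 16 tested integrin and laminin receptor genes rose and 5 fell (median log2 fold change 1.05, against 0.28 over all tested genes). These were 56.2% and 31.2%, beside 41.3% and 39.2% of all tested genes. The 3 that rose most were Itga5 (log2 fold change 3.43), Itgav (2.17) and Itgb3 (1.71), and the 3 that fell most were Itga7 (-2.34), Bcam (-2.17) and Itgb4 (-1.36). Itga5, the fibronectin receptor subunit, had normalized counts of 7434, 7709 and 6274 in grafts, against 657, 645 and 676 before grafting, without overlap. Itga7, the laminin receptor subunit of muscle, had 864, 503 and 534 in grafts, against 2739, 3519 and 3167 before grafting, also without overlap. With ribosomal protein genes at no change, 5 of these receptor genes were higher and 6 lower.

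Of 15 tested hyaluronan receptor, binding protein and hyaluronidase genes, 9 rose and 6 fell (median log2 fold change 1.57), counts that were the same under all 4 other scalings. Over all tested genes 80.4% were called. Ptx3, Cemip and Itih1 passed the filter on low values through the grafts alone. Itih3, Itih4 and Stab2 passed it through the fat before grafting alone. Such genes had to differ, and their calls add no support to these counts. Ptx3, a pentraxin that cross-links hyaluronan in inflamed and ovulating tissue, had normalized counts of 1763, 2264 and 1568 in grafts, against 15.8, 4.1 and 8.9 before grafting (log2 fold change 7.61). Cemip, which starts hyaluronan breakdown, had 439, 1502 and 1464 in grafts, against 20.7, 5.1 and 15.7 before grafting (log2 fold change 6.25). Itih1, an inter-alpha-trypsin inhibitor chain, had 60 reads in grafts and 2 before grafting, a ratio of 29.8 with a 95% exact binomial interval of 7.90 to 251.7 that covers counting error only. The largest falls were in Stab2, a hyaluronan clearance receptor (log2 fold change -4.80), and in Itih4 (-3.98) and Itih5 (-3.34), which encode inter-alpha-trypsin inhibitor chains.

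The enzymes that build the sugar chains of the proteoglycans were listed by chain type. Over all tested genes 41.3% rose and 39.2% fell (median log2 fold change 0.28). Of 19 tested genes of the linker and of chondroitin or dermatan sulfate synthesis, 16 rose and 2 fell (median log2 fold change 1.05), with 8 and 3 once ribosomal protein genes are held at no change. Chsy3 (4.05) and Csgalnact1 (3.65), which extend and start chondroitin chains, and the sulfotransferase gene Chst11 (2.63) had the largest log2 fold changes. The sulfotransferase genes Chst3 (-4.73) and Chst15 (-0.72) were the pair that fell. Of 15 tested genes of heparan sulfate synthesis and trimming, 8 rose and 5 fell (53.3% and 33.3%, median 0.46), with 5 and 5 under that scaling. The sulfotransferase gene Hs6st2 (4.42), the sulfatase gene Sulf1 (1.74) and the polymerase gene Ext1 (1.73) rose most on the log2 scale. Hs3st3b1 (-3.04), Hs3st3a1 (-2.74) and Extl1 (-2.61) fell most. Chsy3 passed the filter on low values through the grafts alone, and Hs3st3a1 through the fat before grafting alone, so both had to differ.

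All 5 lysyl oxidase genes, whose products cross-link elastin and collagen, rose (median log2 fold change 3.01), also under the 4 other scalings. As deposited, 41.3% of all tested genes rose. Lox had normalized counts of 22572, 27014 and 23215 in grafts, against 1049, 1192 and 1304 before grafting (log2 fold change 4.36), and Loxl3 (3.46) and Loxl2 (3.01) followed on the log2 scale. All 9 tested genes of a list of TGF-beta ligands, receptors, a docking protein and targets rose (median 1.33), again beside 41.3% of all tested genes. Without 1 library at a time 7 to 8 of them were called higher, and under the other 4 scalings 6 to 8, the 6 with ribosomal protein genes at no change. Tgfbi, a secreted adhesion protein, had 28109.9, 24712 and 26842 in grafts, against 3153, 2765 and 2551 before grafting (log2 fold change 3.24), and the ligand gene Tgfb2 had a log2 fold change of 2.89. Of 6 tested basement membrane collagen and cross-linker genes, 2 rose and 3 fell (median -1.40), with 1 and 4 under that scaling. Col18a1, the endostatin collagen (1.79), and Pxdn, the peroxidase that cross-links collagen IV (0.72), rose on the log2 scale. Egflam (-2.58), which encodes the dystroglycan ligand pikachurin, and the collagen IV chain genes Col4a4 (-2.52) and Col4a3 (-1.98) fell. These 2 chain genes were low already before grafting, with means of 142.4 and 57.0 normalized counts. Col4a5, the other collagen IV chain gene tested in this list, was not called (-0.81).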

How the data were processed

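Alignment tools named in the submitters' processing notes are HISAT2 2.0.5 and Bowtie 0.12.2, with builds mm8 and mm9. The deposited coordinates of all 68 members lie within 1000 bp of GENCODE M21 on GRCm38. Nothing in the sources used here states the counter, annotation, strand use, normalization tool or gene filter. The values deposited by the authors are a signal, gene reads divided by 1 size factor per library: 100% of them were whole multiples of 1 step within 0.01 reads. The deposited gene lengths (unit: other) gave the levels per kb. The table lists genes selected for a difference, so full depth is unknown.

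Log2(value + 1) of the deposited signal was fitted with limma 3.58.1 (trend, robust; R 4.3.3) on 10854 genes whose value reached 10 in 3 or more libraries; group was the single term and tests were two-sided. The limma p-values were adjusted by Benjamini-Hochberg over all 55450 annotated genes, with unlisted ones given the highest possible p, and a call is an adjusted p under 0.05. Log2 fold changes are on the log2(value + 1) scale, which understates changes of low genes, and folds are ratios of mean values. The p-values set the difference between groups against the spread of libraries within groups, moderated over genes. The fit was also run on simulated counts in which few genes changed, unlike in this table, so that run does not bear on the calls here. Tables and figures used Python 3.11.15, numpy 2.4.6, pandas 2.3.3, scipy 1.17.1 and matplotlib 3.10.9. Of the members, 23 share exon bases with a gene on the opposite strand.

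The members and lists were chosen with earlier results of these data known. Values per library are given for a set of members and for the 2 called members with the largest change in each direction of each role group, and up to 3 called genes in each direction of each related list are named. Some genes that the rule takes are not reported here, though the counts include them. Alternatives were another pseudocount, no filter, 4 scalings, a plain limma fit, adjustment over tested genes, a replicate block and leaving out each library.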

Additional observations from a re-analysis of the deposited data

How the results depend on the processing

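Over the 68 members and 16 alternatives, 1008 of 1088 values kept their direction and their side of the threshold, 44 lost the call, 33 gained one and 3 changed sign. The 3 changes of sign came with ribosomal protein genes at no change, where log2 fold changes were -0.02 for Lamb1, -0.15 for Mfap3 and -0.18 for Gpc6; that scaling lowers log2 fold changes by the ribosomal mean of 0.72, and those of low genes by less. Leaving out 1 library at a time, which leaves an arm with fewer samples, gave 39 to 43 members higher and 11 to 18 lower. The number lower was 14, 12 and 11 without before-grafting replicates 1, 2 and 3. It was 17, 18 and 16 without graft replicates 1, 2 and 3. Adjusted over the tested genes alone, all 68 members were called, 44 higher and 24 lower. That count is no trait of the members, since 99.2% of all tested genes had an unadjusted p under 0.05 (limma). In the groups, 4 provisional and matricellular genes were lower with equal listed totals, equal upper quartiles, ribosomal protein genes at no change or the adjustment over tested genes, instead of 2. Of the hyaluronan group 1 instead of 2 was lower with a pseudocount of 0.5. Deviations from the group means correlated by -0.157, -0.127 and 0.0407 between libraries of the same number in their titles. Between libraries of unlike number the correlations ran from -0.0663 to 0.169. With 3 libraries per group these values cannot show whether the samples were paired. With the replicate block 40 members were higher and 17 lower. The planned count-model alternatives (edgeR and DESeq2) were not run, as the values were taken as normalized. In some libraries the step lay so near 1 (1.004 in graft replicate 1) that it could not be told from rounding. The read numbers given above rest on these steps. Depth limits Lama1, Hapln3, Has3, Omd and Fbln7, which had few reads in 1 or both groups. It also limits the folds of Hapln4, Has1, Fbn2, Tnn, Wisp1 and Mfap4, which had few reads before grafting.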
